A study of Homo sapiens with 90 samples.

Results

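The enzymes described here make, interconvert and break down steroid hormones. They are the products of 10 genes, HSD3B1, CYP17A1, CYP19A1, HSD11B1, HSD17B2, HSD17B6, SRD5A1, SRD5A2, AKR1D1 and AKR1C4. A probe set, the group of short probes that reads 1 transcript on the array, was taken as a member when its platform annotation listed 1 of these genes and no other. This gave 21 of the 54613 probe sets that are not array controls, and 10 of the 19774 genes with such a probe set. CYP19A1 had 7 probe sets, SRD5A1 had 3, CYP17A1, HSD17B6 and SRD5A2 had 2 each, and the other genes had 1 each. The study was a concentration series designed to read whole-transcriptome responses to environmental chemicals in liver cells.

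The cells were HepaRG, a human hepatic line that differentiates into hepatocyte-like and biliary-like cells and is used as a stand-in for primary liver in toxicology. All groups were grown in multiwell plates on collagen and changed to an induction-supplemented medium the day before exposure, so treated and DMSO cells shared that medium. The treated groups received 1 of 2 azole fungicides, the triazole fenbuconazole or the imidazole imazalil, or the herbicide 2,4-D, a chlorinated phenoxy acid. Exposure lasted 24 h at 9 concentrations, 4 of them between 0.001 and 0.03 µM, then 0.1 and 0.3 µM, and finally 1, 3 and 10 µM, with 3 arrays at each. The control cells received 0.2% DMSO, the vehicle present in every well, and gave 3 arrays. Each chemical's 27 treated arrays and the DMSO arrays were normalized together in a set of their own, so the same 3 DMSO arrays appear in every set with slightly different values (r of at least 0.998 between sets) and were never counted as more than 3 samples. The study's methods describe the replicates as independent experiments on separate batches of cells, and a code in the labels was taken here as the number of the batch, 1, 2 or 3. In the fenbuconazole and imazalil sets it equals the replicate number of the titles, but in the 2,4-D set the 2 numbers differ at 6 of the 9 concentrations, 10 µM not among them. All of them come from 1 cell line, so the spread between arrays is that between cell batches and not between people.

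Steroid hormones are built from cholesterol by P450 enzymes and hydroxysteroid dehydrogenases, mainly in the adrenal cortex, gonads and placenta. The liver makes few active steroids and mostly inactivates them, by reducing the A ring, oxidizing or reducing single hydroxyl and keto groups, and conjugating the products for excretion. Azole fungicides act by binding the heme iron of a fungal P450, and several are known to inhibit human steroidogenic P450 enzymes. The arrays measured RNA, so enzyme activity and steroid levels were not measured here.

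Values are log2 expression values, and a difference of 1 unit is a doubling. The median over all probe sets lay between 2.80 and 2.97 on every array, which serves here as a guide to the floor. All 9 hepatocyte marker genes measured lay more than 3 units above the array median. The 8 markers of adrenal cortex and gonad lay at most 0.21 above it in any set, and the 5 placental markers at most 0.04. The cells are of 1 hepatic line, so these 2 lists describe readings near the floor and do not test for other tissues. With 1 probe set per gene, the median difference of the hepatocyte list between 10 µM and DMSO was -0.07 with fenbuconazole, -0.05 with imazalil and -0.03 with 2,4-D. The mean of the list was lower, at -0.12, -0.17 and -0.05, and 1 gene carried most of it, AHSG, a secreted plasma glycoprotein (-0.83, -1.26 and -0.26). The other 8 markers lay between -0.08 and 0.10 with fenbuconazole, between -0.17 and 0.08 with imazalil and between -0.20 and 0.11 with 2,4-D. Their mean level spanned 11.75 to 11.91 on the fenbuconazole arrays, 11.75 to 11.87 on the imazalil arrays and 11.81 to 11.92 on the 2,4-D arrays, against DMSO ranges of 11.85 to 11.90, 11.84 to 11.90 and 11.88 to 11.92 in those sets. The mean of the 6 biliary epithelium markers at 10 µM differed from DMSO by 0.16 with fenbuconazole, 0.23 with imazalil and 0.10 with 2,4-D. It was above DMSO in every batch, while single genes ran from -0.08 to 0.53, from -0.17 to 0.86 and from -0.06 to 0.35. Only 2 of these 6 lay more than 3 units above the array median. In bulk RNA, fewer cells of a type and less RNA per cell cannot be told apart, and the part of cell makeup in the results was not tested.

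The sequences shown lie just upstream of the annotated starts of the 3 genes with a called difference. They are the 250 bases before the start of HSD3B1 (chr1:119506953-119507202, plus strand), HSD11B1 (chr1:209685929-209686178, plus strand) and AKR1D1 (chr7:138076209-138076458, plus strand), from RefSeq on GRCh38.p14, and 8 of the 10 members had an entry. Capitals mark matches, on either strand, to TATAAA (a box of core promoters), CCAAT (a site of the factor NF-Y), AGGTCA (a repeat unit of nuclear receptor elements), GCGTG (the core of the aryl hydrocarbon receptor element), CACGTG (the E-box of basic helix-loop-helix factors) or AGATAA (a site of GATA-family factors). No bases were shared by matches to different motifs.
HSD3B1: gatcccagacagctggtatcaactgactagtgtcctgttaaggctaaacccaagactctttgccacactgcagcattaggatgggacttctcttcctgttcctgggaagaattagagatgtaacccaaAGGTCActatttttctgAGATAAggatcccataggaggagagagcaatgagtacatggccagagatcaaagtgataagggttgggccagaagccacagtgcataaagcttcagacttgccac
HSD11B1: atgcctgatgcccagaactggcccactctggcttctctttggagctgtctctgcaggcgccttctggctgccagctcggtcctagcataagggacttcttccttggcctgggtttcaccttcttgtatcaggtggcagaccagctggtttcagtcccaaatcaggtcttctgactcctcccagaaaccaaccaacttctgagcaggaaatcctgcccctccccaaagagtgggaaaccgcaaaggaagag
AKR1D1: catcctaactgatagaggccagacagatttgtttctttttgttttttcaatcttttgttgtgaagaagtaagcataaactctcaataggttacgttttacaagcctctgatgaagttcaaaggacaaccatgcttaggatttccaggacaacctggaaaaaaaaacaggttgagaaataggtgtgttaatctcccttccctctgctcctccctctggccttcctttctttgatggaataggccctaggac
The HSD3B1 window held 1 match to AGGTCA, which 12.1% of all 35116 promoter windows of this length hold, and 1 to AGATAA, which 9.17% hold. The HSD11B1 and AKR1D1 windows held none of the motifs. The other shares were 10.7% for TATAAA, 32% for CCAAT, 32.2% for GCGTG and 6.34% for CACGTG. A match is a description of the letters and not a binding site. HSD3B1 had 2 promoter entries, and the one nearest the annotated start of the gene is shown. HSD11B1 and AKR1D1 had 1 entry each. Which start these cells used was not measured.

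HSD3B1, which oxidizes and isomerizes precursor steroids such as pregnenolone and DHEA into the hormones of the next step, was the only member called against DMSO. Its probe set (204515_PM_at) read 6.20, 6.29 and 6.70 in cells with 10 µM imazalil (cell batches 1, 2 and 3), against 7.40, 7.06 and 7.43 with DMSO. All treated arrays lay below all DMSO arrays. The means were 6.40 ± 0.27 and 7.30 ± 0.21 (SD, n = 3 each), and HSD3B1 fell by 0.90 (SE 0.14, limma's moderated test, Benjamini-Hochberg adjusted p = 0.000505 over all probe sets), to 0.535 of the DMSO level. Within the batches the differences were -1.21, -0.77 and -0.73. It was the only 1 of the 21 member probe sets past the threshold of 0.05 in this comparison, in which 0.406% of all probe sets were. Without batch 1 the difference was -0.75 with an adjusted p of 0.0602, and in a fit of these 6 arrays alone the same difference had an adjusted p of 0.130.

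The lower concentrations show where the HSD3B1 values left the range of the others. At 3 µM imazalil the arrays read 6.81, 7.19 and 7.25, and at 1 µM 7.30, 7.28 and 7.38. Over the 12 arrays at 0.001 to 0.03 µM, pooled here as a second reference, the lowest value was 7.17, the median 7.48 and the highest 7.60. Against that pool HSD3B1 fell by 1.04 at 10 µM (SE 0.11, limma adjusted p = 7.15e-07, with 1.02% of all probe sets called), with within-batch differences of -1.06, -1.26 and -0.79. The 10 µM arrays lay below the whole pool. At 3 µM the difference from the pool was -0.35 and did not pass (adjusted p = 0.257), and it did not pass at 3 µM against DMSO either (-0.21). In the test of any difference among DMSO and the 9 imazalil concentrations, HSD3B1 had an adjusted p of 0.000394, where 0.214% of all probe sets were called, and it lost that call when any 1 batch was left out (adjusted p of 0.0649, 0.344 and 0.079 without batches 1, 2 and 3).

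Fenbuconazole gave smaller HSD3B1 differences. The 10 µM arrays read 7.21, 6.69 and 7.22, against 7.42, 7.12 and 7.47 with DMSO, and the groups overlapped. The difference of -0.30 did not pass against DMSO (SE 0.15, limma adjusted p = 0.784). The 12 arrays at the lowest concentrations of fenbuconazole ran from 7.12 to 7.82 with a median of 7.66, all but 1 of them above the highest DMSO array, and against that pool HSD3B1 fell by 0.58 (SE 0.12, adjusted p = 0.00766). Within batches that difference was -0.26, -0.995 and -0.47, most of it in batch 2. Without batch 2 it was -0.37 (adjusted p = 0.636), without batch 3 -0.63 (adjusted p = 0.161) and without batch 1 -0.73 (adjusted p = 0.00623). With 10 µM 2,4-D HSD3B1 read 7.43, 7.56 and 7.41, against 7.48, 7.16 and 7.57 with DMSO, a difference of 0.06 (adjusted p = 0.995).

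**Figure D1:**
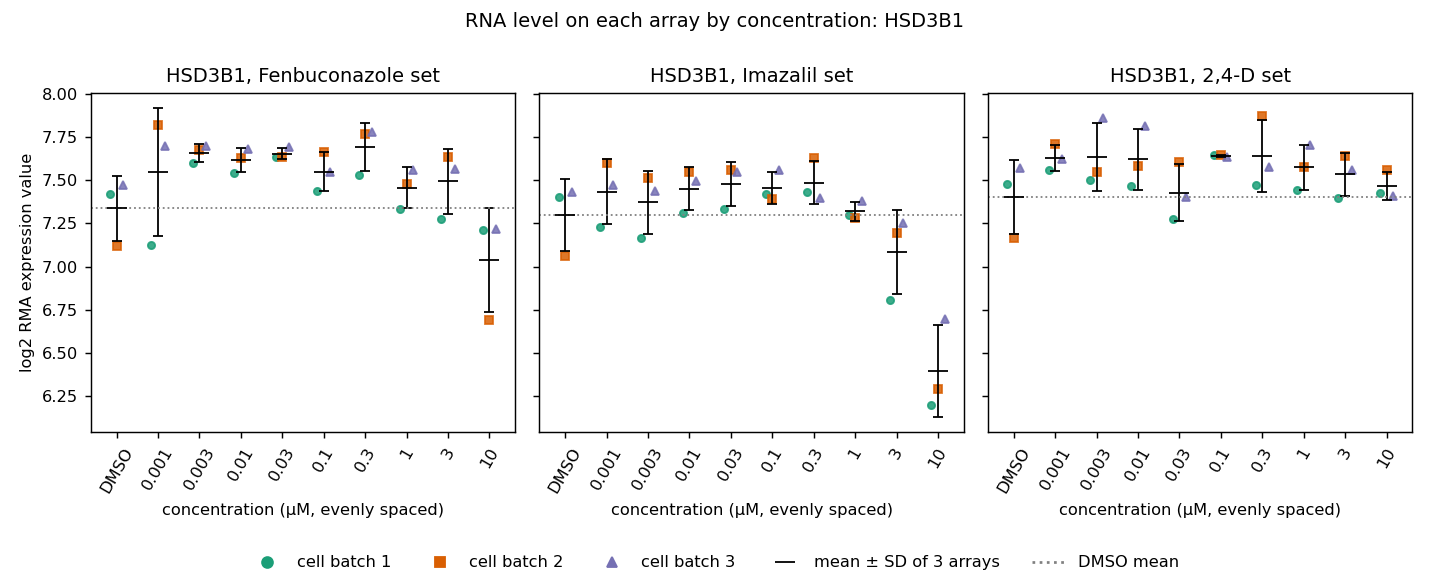
HSD3B1 log2 expression value on each array (points, marked by cell batch) against concentration in µM for the 3 chemicals, with the mean ± SD of 3 arrays as black bars and the DMSO mean as a dotted line. The 10 µM imazalil arrays, at 6.20 to 6.70, lie below every other array of their set, while the 2,4-D values at 10 µM lie among the DMSO values.

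The chemicals differed from each other at 10 µM in HSD3B1. In the fit of all treated arrays, each taken relative to the DMSO mean of its set, fenbuconazole lay 0.61 above imazalil (95% confidence interval 0.34 to 0.88, limma adjusted p = 0.018), and imazalil lay below 2,4-D by a difference of -0.96 (interval -1.24 to -0.69, adjusted p = 2.4e-06). Fenbuconazole minus 2,4-D was -0.36 (interval -0.63 to -0.09) and did not pass (adjusted p = 0.508). The pair of azoles shares an azole ring that can bind heme iron and differs in the kind of ring, a triazole in fenbuconazole and an imidazole in imazalil, and in the rest of the molecule. The fenbuconazole minus imazalil call was lost without any 1 batch (0.41, 0.74 and 0.67 without batches 1, 2 and 3, with adjusted p of 0.410, 0.103 and 0.222).

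CYP17A1 and CYP19A1 stand at the P450 steps of the pathway, CYP17A1 making the precursors of cortisol and the androgens and CYP19A1 (aromatase) turning androgens into estrogens. Their probe sets lay near the floor, with no array higher than 0.63 above its median for CYP17A1 and 1.30 for CYP19A1, and 5 of the 7 CYP19A1 probe sets lay below the median on every array. None of these 9 probe sets passed in any test. The CYP19A1 probe set 203475_PM_at read 4.15, 3.58 and 3.91 with 10 µM imazalil, against 2.95, 3.44 and 3.40 with DMSO. These groups did not overlap, but the difference of 0.62 (SE 0.18) did not pass (limma adjusted p = 0.208), and in batch 1 it was 1.20 and in batch 2 0.14. This probe set lay above the DMSO mean in 27 of 27 conditions, all of which were set against the same 3 DMSO arrays. A second CYP19A1 probe set, 1554296_PM_at, read 1.94, 2.03 and 2.00 with 10 µM imazalil, against 2.14, 2.32 and 2.05 with DMSO, a difference of -0.18 (adjusted p = 0.577). The differences of these 2 probe sets of the gene had opposite signs, and neither passed the test.

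HSD11B1, which regenerates active cortisol from cortisone and is abundant in liver, was lowest with 10 µM fenbuconazole. Its probe set (205404_PM_at) read 8.12, 7.61 and 8.37 there, against 8.49, 8.33 and 8.60 with DMSO. The means were 8.03 ± 0.39 and 8.48 ± 0.14 (SD, n = 3 each), the groups overlapped, and the difference of -0.44 did not pass (SE 0.14, limma adjusted p = 0.309). No member passed against DMSO with fenbuconazole (0 of 21 probe sets, 2 of them at an unadjusted p under 0.05). Of all probe sets 0.346% were called, and 6.51% had an unadjusted p under 0.05.

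Against the 12 arrays at 0.001 to 0.03 µM fenbuconazole, which ran from 8.35 to 8.72 with a median of 8.51, HSD11B1 fell by 0.47 (SE 0.11, limma adjusted p = 0.0229), to 0.721 of that level. HSD3B1 and HSD11B1 were the 2 member probe sets called in this comparison, in which 0.941% of all probe sets were. The within-batch differences for HSD11B1 were -0.36, -0.83 and -0.23. Without batch 2 the difference was -0.30 (adjusted p = 0.703), without batch 1 -0.53 (adjusted p = 0.215) and without batch 3 -0.59 (adjusted p = 0.0195). Averaged over the groups of a set, HSD11B1 also differed between cell batches (limma adjusted p of 0.0294, 0.0403 and 0.00242 in the fenbuconazole, imazalil and 2,4-D sets). In these sets 2.84, 3.07 and 4.8% of all probe sets did. The order of the batches in HSD11B1 was not the same in every group. HSD17B2 also differed between batches in the imazalil and 2,4-D sets (adjusted p of 0.0364 and 0.00164). The 2,4-D values rest on the code where it departs from the titles.

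With 10 µM imazalil HSD11B1 read 8.29, 7.97 and 8.39, against 8.55, 8.40 and 8.64 with DMSO. The groups did not overlap, but the difference of -0.32 passed neither against DMSO (adjusted p = 0.662) nor against the pooled low concentrations (-0.33, adjusted p = 0.394). With 2,4-D it read 8.37, 8.27 and 8.65, against 8.60, 8.43 and 8.71 with DMSO, a difference of -0.15 (adjusted p = 0.963). At 10 µM the chemicals did not differ detectably in HSD11B1. Fenbuconazole minus imazalil was -0.13 with a 95% interval of -0.43 to 0.18, fenbuconazole minus 2,4-D -0.30 (interval -0.60 to 0.01) and imazalil minus 2,4-D -0.17 (interval -0.48 to 0.14), so the data leave room for differences up to these bounds.

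**Figure D2:**
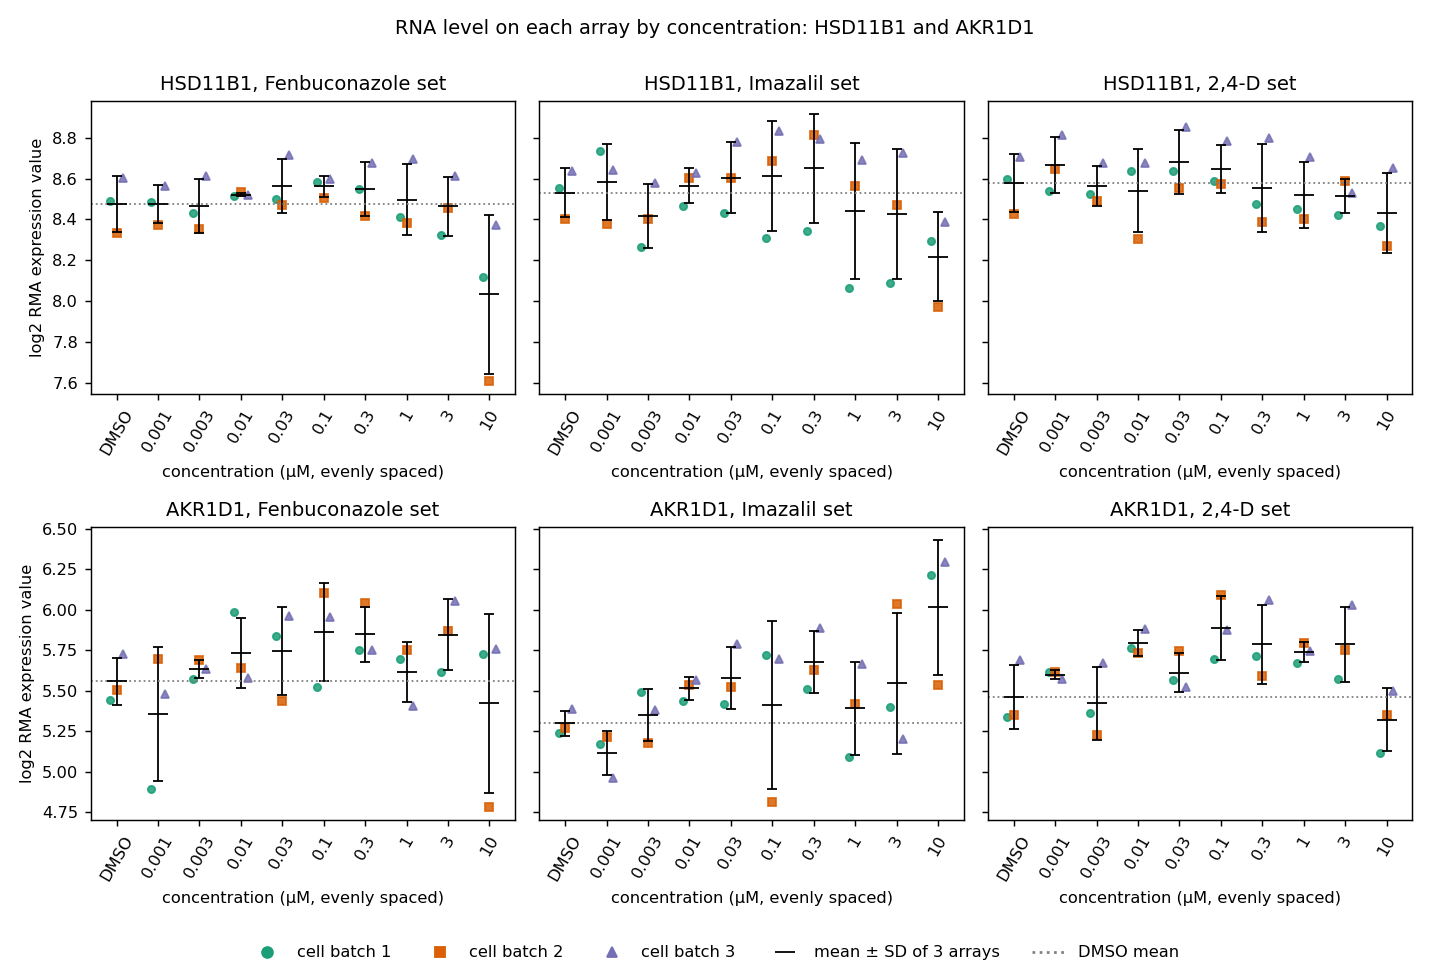
HSD11B1 (top) and AKR1D1 (bottom) log2 expression values on each array against concentration in µM, marked as in the plot of HSD3B1. The batch 2 array at 10 µM fenbuconazole is the lowest of its set for both genes (7.61 and 4.78), and the AKR1D1 arrays at 10 µM imazalil (5.53 to 6.29) all lie above the DMSO arrays.

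HSD17B2, which oxidizes estradiol and testosterone to their less active keto forms, stayed within a narrow range, with condition means between -0.08 and 0.20 of DMSO. Its highest difference was at 10 µM imazalil (7.63 ± 0.19, against 7.43 ± 0.03 with DMSO, SD, n = 3 each) and did not pass (limma adjusted p = 0.728). HSD17B6, which can oxidize androstanediol back to dihydrotestosterone, was read by 2 probe sets of unequal spread. In the tighter one, 205700_PM_at, the 10 µM imazalil arrays read 11.48, 11.51 and 11.57, against 11.71, 11.71 and 11.77 with DMSO. These groups did not overlap and the within-batch differences were -0.23, -0.20 and -0.20, yet the difference of -0.21 did not pass against DMSO (adjusted p = 0.374) or the pooled low concentrations (-0.22, adjusted p = 0.0776). With the prior variance fitted as a robust trend on expression level it passed in both (adjusted p of 0.0428 and 0.000939), and it passed against the pool when dim probe sets were left out (adjusted p = 0.027). The other HSD17B6 probe set, 37512_PM_at, read 10.58, 9.74 and 10.54 with 10 µM imazalil, against 10.34, 10.19 and 10.69 with DMSO, a difference of -0.12 whose sign was not the same in all batches.

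SRD5A1 and SRD5A2 encode the steroid 5-alpha-reductases, which reduce testosterone to dihydrotestosterone. The 3 SRD5A1 probe sets differed from DMSO by -0.16, 0.03 and -0.15 with 10 µM fenbuconazole, by 0.08, -0.05 and -0.18 with imazalil and by -0.07, -0.14 and 0.15 with 2,4-D (204675_PM_at, 210959_PM_s_at and 211056_PM_s_at). None passed, and the probe sets of the gene did not share a direction with imazalil, 2,4-D or fenbuconazole. SRD5A2 lay near the floor, with no array more than 1.03 above its median, and its differences over all conditions ran from -0.22 to 0.28.

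AKR1D1 reduces the A ring of cortisol, testosterone and bile acid intermediates to the 5-beta form, and AKR1C4, a liver-specific member of the aldo-keto reductases, reduces the keto group of the products. AKR1D1 (207102_PM_at) read 6.21, 5.53 and 6.29 with 10 µM imazalil, against 5.24, 5.27 and 5.39 with DMSO. All treated arrays were above all DMSO arrays, and the difference was 0.72 (SE 0.21), within batches 0.97, 0.27 and 0.91. It did not pass against DMSO (limma adjusted p = 0.218) or against the pooled low concentrations (0.63, adjusted p = 0.0755). Without batch 2 the difference from the pool was 0.85 and passed (adjusted p = 0.0135), and it also passed with the robust trend prior (0.0477) and with 1 value per gene (0.0442).

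The AKR1D1 level with 10 µM fenbuconazole was 5.73, 4.78 and 5.76, against 5.44, 5.50 and 5.72 with DMSO, so that only batch 2 was low. The difference of -0.14 (adjusted p = 0.979) became 0.16 without batch 2. With 10 µM 2,4-D the arrays read 5.11, 5.35 and 5.50, against 5.34, 5.35 and 5.69 with DMSO, a difference of -0.14 (adjusted p = 0.971). In the comparison of chemicals at 10 µM, AKR1D1 was lower with fenbuconazole than with imazalil by a difference of -0.85 (95% interval -1.27 to -0.43, limma adjusted p = 0.0488), and higher with imazalil than with 2,4-D by 0.86 (interval 0.44 to 1.27, adjusted p = 0.0347). Fenbuconazole and 2,4-D differed by 0.004 (interval -0.41 to 0.42).

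These AKR1D1 calls lay close to the threshold. The first was lost without any 1 batch (adjusted p of 0.242, 0.231 and 0.389 without batches 1, 2 and 3), and the second without batch 1 (0.69, adjusted p = 0.456) or batch 3 (0.73, adjusted p = 0.468). The DMSO mean of AKR1D1 was 0.26 higher in the fenbuconazole than in the imazalil set although the arrays are the same, where the SD of this offset over all probe sets was 0.111. Without subtraction of the DMSO means the differences were -0.59 (adjusted p = 0.194) and 0.69 (adjusted p = 0.0643). For HSD3B1 the offset was 0.04, and without subtraction its differences were 0.64 (adjusted p = 0.00526) and -1.07 (adjusted p = 1.59e-07).

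AKR1C4 (210558_PM_at) read 7.30, 6.70 and 7.21 with 10 µM fenbuconazole, against 7.49, 7.21 and 7.75 with DMSO. The difference of -0.42 (SE 0.15) was negative in all batches and did not pass (limma adjusted p = 0.513). With imazalil it was -0.22 (adjusted p = 0.785) and with 2,4-D 0.04 (adjusted p = 0.996).

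**Figure D3:**
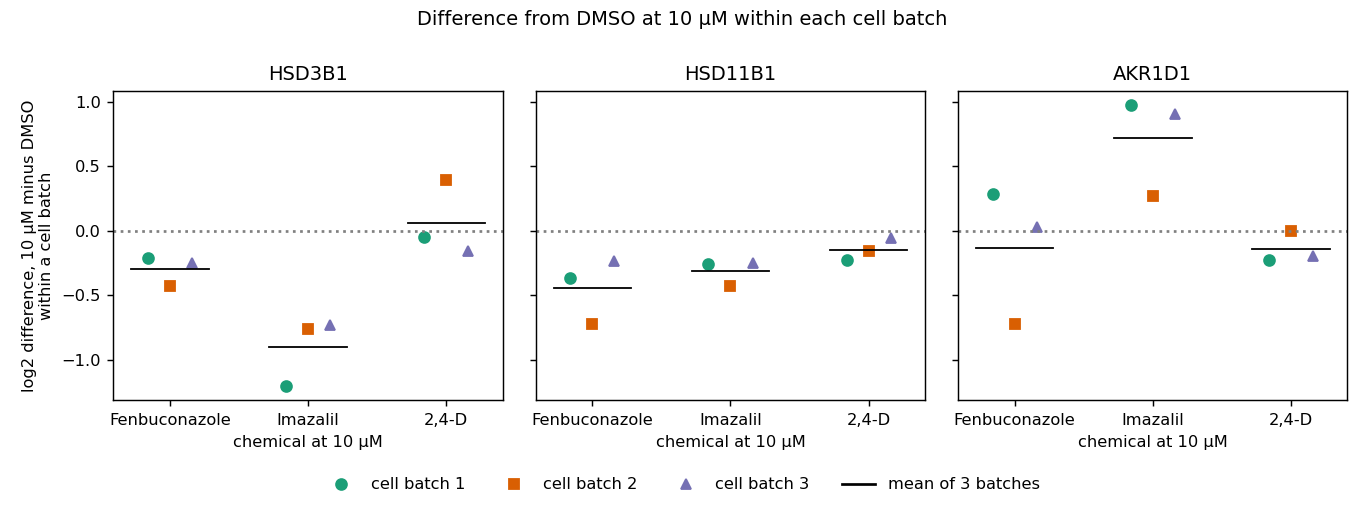
Difference in log2 expression value between 10 µM and DMSO within each of the 3 cell batches (points), with the mean as a line, for the 3 genes with a called difference. The HSD3B1 points for imazalil run from -1.21 to -0.73, and batch 2 is the lowest point for fenbuconazole in all 3 genes.

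Over the whole list, 2 probe sets were called for fenbuconazole minus imazalil at 10 µM and the same number for imazalil minus 2,4-D, those of HSD3B1 and AKR1D1 in both, where 0.269% and 0.388% of all probe sets were called. For fenbuconazole minus 2,4-D, 0 of 21 were called (5 at an unadjusted p under 0.05 in limma). Of all probe sets 0.357% were called, and 6.48% had an unadjusted p under 0.05. In that pair AKR1C4 had the lowest adjusted p (0.227), with a difference of -0.46 and an interval of -0.74 to -0.18. The p-values were adjusted over all probe sets for each pair, and 3 pairs were compared at each of 9 matched concentrations. Below 10 µM, the 24 comparisons between chemicals called 0 of 504 member tests (29 at an unadjusted p under 0.05, 5.75%) and 0.00526% of all tests. In single comparisons, 3.34 to 11.9% of all probe sets had an unadjusted p under 0.05 in limma. The lowest adjusted p of a member was 0.184, for SRD5A1 (210959_PM_s_at) at 3 µM, where fenbuconazole minus imazalil was 0.60.

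**Figure D4:**
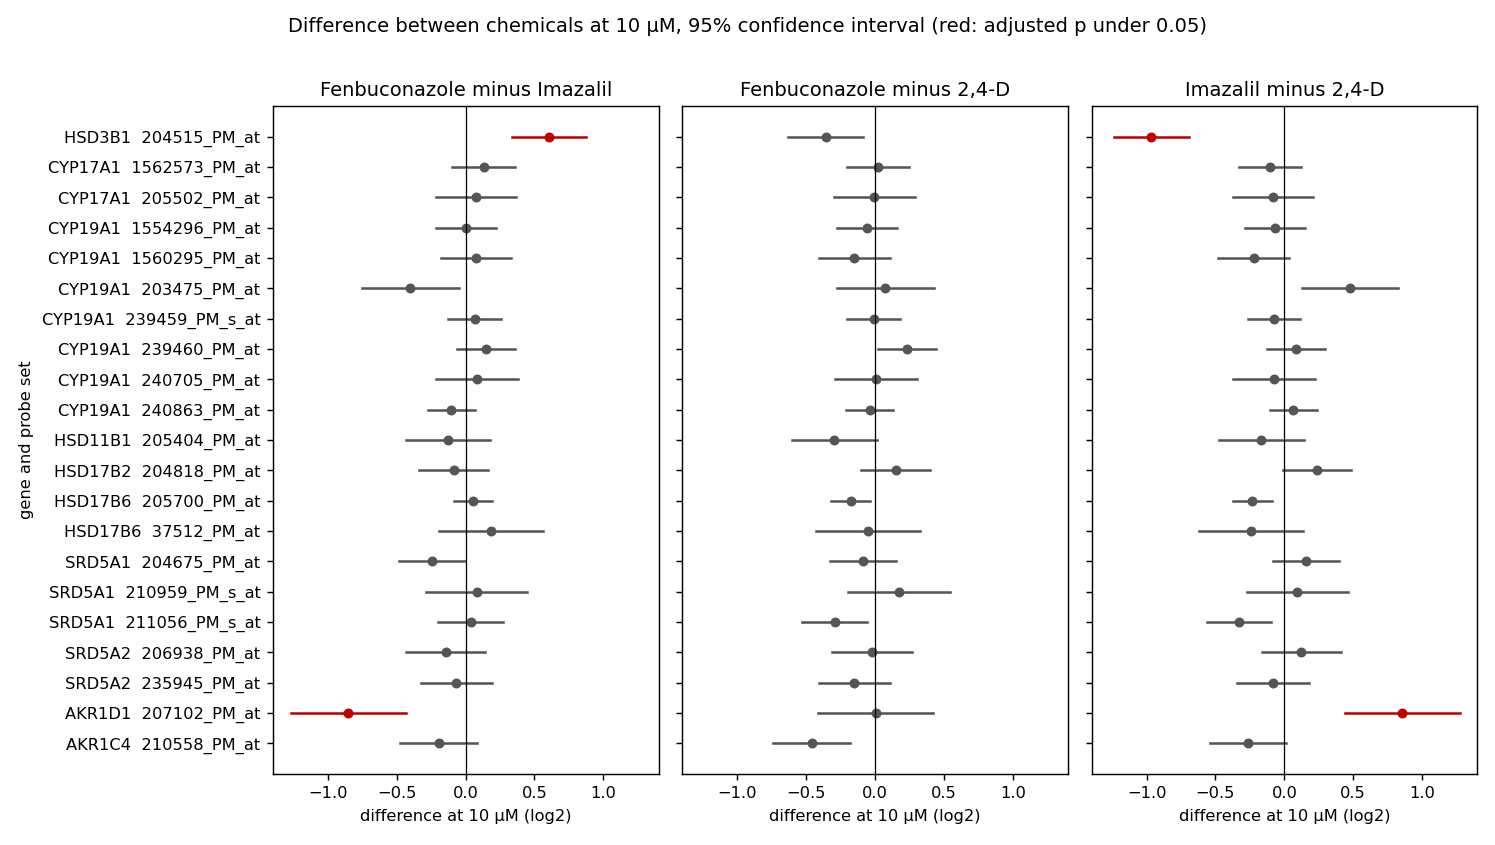
Difference between chemicals at 10 µM on the log2 scale (horizontal axis), each relative to DMSO, with its 95% confidence interval for the 21 probe sets. Red marks an adjusted p under 0.05, reached by HSD3B1 (0.61 and -0.96) and AKR1D1 (-0.85 and 0.86) in the panels with imazalil.

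Concentrations below 10 µM gave no call among the members. Against DMSO, 0 of 504 tests passed (23, or 4.56%, at an unadjusted p under 0.05 in limma), where 0.00214% of all such tests did, and the lowest adjusted p was 0.356. The member differences ran from -0.30 to 0.47. In single contrasts with DMSO, 4.07 to 9.03% of all probe sets had an unadjusted p under 0.05. At 1 and 3 µM against the pooled low concentrations, 0 of 126 passed (9 at an unadjusted p under 0.05) and 0.0168% of all. In the overall tests, 0 of 21 were called for fenbuconazole and 0 for 2,4-D, where 0.233% and 0.00549% of all probe sets were. For 2,4-D at 10 µM, 0 of 21 passed against DMSO (0 at an unadjusted p under 0.05, 0% of all probe sets called) and 0 against the pool (3 at an unadjusted p under 0.05, 0.168% of all called). Of all probe sets, 5.55% and 7.38% had an unadjusted p under 0.05 in these 2 comparisons. At 10 µM the median difference of the 21 probe sets from DMSO was -0.11 with fenbuconazole, -0.07 with imazalil and 0.01 with 2,4-D, and the median over all probe sets was within 0.01 of 0 in each.

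**Figure D5:**
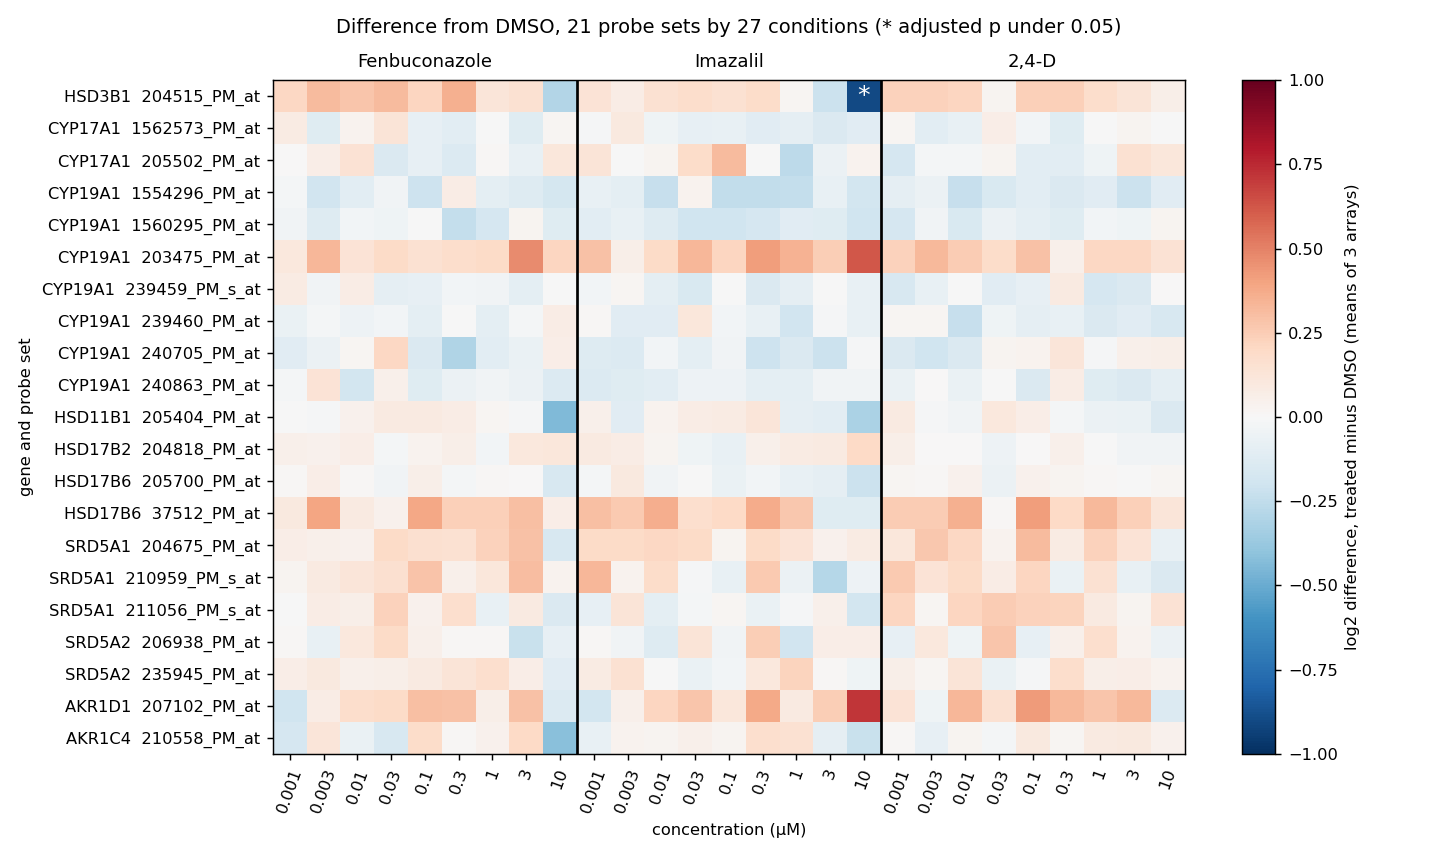
Mean log2 difference from DMSO (colour, from -1 to 1) for 21 probe sets (rows) in 27 conditions (columns, concentration in µM rising from left to right within a chemical). The only cell with an adjusted p under 0.05 (star) is HSD3B1 at 10 µM imazalil, and the CYP19A1 probe set 203475_PM_at is above 0 in all conditions.

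Some other genes of steroid metabolism were called at 10 µM against DMSO, in lists chosen with earlier results of these data known. Of all probe sets, 0.346% were called with fenbuconazole, 0.406% with imazalil and 0% with 2,4-D. Of 23 further hydroxylases, dehydrogenases and reductases measured, 1 rose with fenbuconazole, HSD17B7 (0.85, limma adjusted p = 1.79e-05), whose product also acts in cholesterol synthesis, and none passed with imazalil or 2,4-D. HSD3B2, the close relative of HSD3B1 in adrenal and gonad, lay 0.68 to 0.72 below the array median. Of 7 conjugating and hydrolyzing enzymes, SULT2A1, which sulfates DHEA and bile acids, rose with imazalil (0.63, adjusted p = 0.000338), and SULT1E1, which sulfates estrogens, fell by 0.81 (adjusted p = 0.00475). Of 4 electron carriers of steroid P450 enzymes, POR, the reductase of the microsomal P450 enzymes, rose with imazalil (0.91, adjusted p = 7.08e-05). Against the pooled low concentrations, 2 more calls were made in these lists, where 0.941% of all probe sets were called with fenbuconazole and 1.02% with imazalil. They were SULT2A1 with fenbuconazole (0.37, adjusted p = 0.00811, where the difference from DMSO was 0.27 with an adjusted p of 0.459) and CYB5A, an electron carrier that supports P450 reactions, with imazalil (0.39, adjusted p = 0.0066, against DMSO 0.39 with an adjusted p of 0.0845). None of the 6 steroid and xenobiotic receptor genes measured passed against either reference. Among the markers of cell types, AHSG of the hepatocyte list fell with both azoles (-0.83 and adjusted p = 0.0484 for fenbuconazole, -1.26 and adjusted p = 7.08e-05 for imazalil), and the other 8 did not pass. SPP1 of the biliary list rose with both (0.53 and 0.86), as the only 1 of 6 to pass. That list had medians of 0.10 with fenbuconazole and 0.18 with imazalil, and lowest values of -0.08 and -0.17. With imazalil CD14 rose (0.88) as the only 1 of 4 immune markers measured to pass, where the list had a median of -0.01 and a lowest value of -0.24. COL3A1 fell by 0.82 as the only 1 of 6 mesenchymal markers to pass, where the list had a median of -0.11 and a highest value of 0.34. No marker passed with 2,4-D.

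The genes whose pattern was most like that of a called member were found by Pearson's r over the 27 condition means. These means share their DMSO arrays and cell batches, so r is given as a description. For each called member the 3 genes with the highest r were taken, out of the 19774 with a probe set listing no other gene. For HSD3B1 they were CYP4A22 (r = 0.96), AHSG (0.94) and CYP4A11 (0.93), with differences at 10 µM imazalil of -1.38, -1.26 and -1.48. CYP4A22 and CYP4A11 are fatty acid hydroxylases. For HSD11B1 they were BACE2, CD3D and CRYM, each with r = 0.90. Their differences at 10 µM fenbuconazole were -0.24, -0.82 and -0.48, against -0.44 for HSD11B1. At 10 µM imazalil they were -0.18, -1.15 and -0.29, against -0.32 for HSD11B1. For AKR1D1 the highest were lower, at 0.73 for PRKAG2-AS1 and PIM3 and 0.69 for AIMP1. Their differences at 10 µM imazalil were 0.37, 0.13 and 0.05, against 0.72 for AKR1D1.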

How the data were processed

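RNA from HepaRG cells was hybridized to Affymetrix HT HG-U133+ PM arrays. The authors normalized each chemical's 27 treated and 3 DMSO arrays together by RMA in Partek and deposited log2 values in 90 columns, each read here as deposited. RMA fits probe effects within a set, so levels of the same DMSO arrays shift slightly between sets. Precision is limited by having 3 arrays per group. The 102 array controls were left out, and no filter on level was applied to the other 54613 probe sets, of which 12835 had no symbol listed and 864 had several. With limma 3.58.1 in R 4.3.3, group means were fitted in each set, with tests of 10 µM and of each lower concentration against DMSO, of any difference (moderated F), and of 1, 3 and 10 µM against the 12 arrays at 0.001 to 0.03 µM. Chemicals were compared on the 81 treated arrays minus their set's DMSO mean. P-values were adjusted by Benjamini-Hochberg over all probe sets at 0.05, and the code was tested on simulated data. All members were described, with values per array for those past the threshold in any test plus CYP19A1, added by its overall adjusted p (0.601), and for further members chosen after their values were seen. The members and lists were chosen with earlier results of these data known. Promoter windows were matched by symbol and searched with Python 3.11.15, and figures drawn with matplotlib 3.10.9. Alternatives left out each batch, blocked on batch, or changed the arrays, centring, filter, prior, reference, DMSO subtraction or gene summary. Correlation of deviations from group means within a batch code averaged 0.098, 0.094 and 0.116 in the fenbuconazole, imazalil and 2,4-D sets, with minima below 0.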

Additional observations from a re-analysis of the deposited data

Results flagged for a closer look

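The HSD3B1 response to 10 µM differed between chemicals by a test of the difference itself. On the log2 scale, fenbuconazole minus imazalil was 0.606 (limma adjusted p = 0.018) and imazalil minus 2,4-D -0.964 (adjusted p = 2.4e-06). The first call was lost in 3 of 10 alternative settings, each without 1 batch, and the second in 0 of 10. The AKR1D1 response was called in the same pairs, with fenbuconazole minus imazalil at -0.852 (limma adjusted p = 0.0488) and imazalil minus 2,4-D at 0.857 (adjusted p = 0.0347). Both lay close to the threshold. They were lost in 6 and 4 of 10 alternative settings, the one without DMSO subtraction among them.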

How the results depend on the processing

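Of 157 alternative values for HSD3B1, AKR1D1 and HSD11B1, 130 kept their direction and side of the threshold, 22 lost a call, 3 gained one and 2 changed sign. Many of the 157 belong to differences not called in the main fit, which had no call to lose, so the tally does not measure how stable the calls were. Fenbuconazole minus imazalil for AKR1D1 lost its call in 6 of 10 settings, and imazalil minus 2,4-D for HSD3B1 in 0 of 10. Both sign changes were AKR1D1 with fenbuconazole without batch 2 (0.16 against DMSO and 0.12 against the low concentrations, neither called, with -0.35 and -0.37 at the other end of their ranges over the batches left out). Leaving out a batch gave 0 to 1 member calls for fenbuconazole against the low concentrations, 0 for any imazalil difference, 0 to 1 for imazalil against DMSO, 1 to 2 for imazalil against the low concentrations, 0 for fenbuconazole minus imazalil and 1 to 2 for imazalil minus 2,4-D. Imazalil against DMSO gave 0 calls with only the 2 groups compared and 2 with a robust trend prior. Imazalil against the low concentrations gave 2 without dim probe sets, 3 with the robust trend prior and 2 with 1 value per gene. Fenbuconazole minus imazalil and imazalil minus 2,4-D each gave 1 call with arrays centred on their medians and 1 without DMSO subtraction, and fenbuconazole minus imazalil gave 1 without the 2 arrays of 2,4-D that share a sample code. The cause of these changes was not tested. Leaving out a batch also leaves fewer arrays. Over all probe sets, leaving out a batch gave, for fenbuconazole, 27 to 61 in place of 127 (any difference), 64 to 127 in place of 189 (against DMSO) and 128 to 289 in place of 514 (against the low concentrations), for imazalil 34 to 50 in place of 117, 48 to 88 in place of 222 and 115 to 304 in place of 558, and for 2,4-D 0 in place of 3, 0 in place of 0 and 0 to 28 in place of 92. For fenbuconazole minus imazalil, fenbuconazole minus 2,4-D and imazalil minus 2,4-D it gave 56 to 89, 116 to 162 and 88 to 115 in place of 147, 195 and 212, and no DMSO subtraction gave 391, 563 and 1026. Fits of the 6 compared arrays alone gave 60 for fenbuconazole and 47 for imazalil against DMSO. For any difference, a slope on log concentration gave 26, 233 and 5 for fenbuconazole, imazalil and 2,4-D, and the robust trend prior 192, 211 and 27, with 159 for 2,4-D against the low concentrations. The block gave 192 for any imazalil difference, 24 for any 2,4-D difference, 846 for imazalil and 206 for 2,4-D against the low concentrations and 322 for imazalil minus 2,4-D. For 2,4-D, any difference gave 9 with 1 value per gene, 5 with centred arrays and 1 with the block by title number, and 10 µM against DMSO gave at most 3 in any setting. With the batch as a replicate block, the counts of member calls were 0, 0 and 2 for fenbuconazole (any difference, against DMSO and against the low concentrations), 1, 1 and 1 for imazalil and 0, 0 and 0 for 2,4-D, and the block changed no member call. By title number, it gave 0 for 2,4-D as well. Pairing by batch code rests on a hint from the data, as 22, 23 and 26 of 30 arrays in the fenbuconazole, imazalil and 2,4-D sets correlated best with their own number. By title number, 17 of 30 arrays of the 2,4-D set did. The mean correlation within a number in that set was 0.0005 by title and 0.116 by code. CYP17A1, CYP19A1 and SRD5A2 lay so near the floor that changes in them could be missed.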
